A study of Mus musculus with 13 samples.

Results

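The H3K27ac state of mouse macrophages given IFNγ (100 ng/ml) together with IL-4 (10 ng/ml) for 4 h was set against that of untreated macrophages. The comparison takes 2 of the 13 ChIP-seq libraries of the series, chosen by their labelled treatment, and each group is 1 library. All cells were primary bone marrow-derived macrophages of the C57BL/6 strain, grown in medium conditioned by L929 fibroblasts and used on day 7 of differentiation. Chromatin was precipitated with the H3K27ac antibody ab4729. Macrophages given IFNγ alone or IL-4 alone for 4 h at the same doses, macrophages given both cytokines for 2 h, and a second untreated library labelled scramble, 1 library each, serve as points of reference. The labels do not name the sex, the age or the number of mice, nor whether marrow was pooled. With 1 library per condition no difference could be tested, and every count below describes these libraries, not the treatments in general.

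H3K27ac is acetylation of lysine 27 of histone H3, a mark of active promoters and enhancers. IFNγ binds a receptor that signals through the kinases JAK1 and JAK2 to palindromic GAS elements in the DNA. IFNγ also induces the factor IRF1, which binds interferon-stimulated response elements that hold repeats of GAAA. The resulting classically activated macrophage presents antigen and kills microbes, in the mouse with nitric oxide made by Nos2. IL-4 signals through IL-4Rα to STAT6, whose preferred palindrome has a spacer longer by 1 base than that of GAS elements. STAT6 drives the alternatively activated macrophage, whose mouse markers include Arg1, Mrc1 and Retnla. The question addressed was what the mark looks like at the loci of both programmes when both signals arrive together.

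Promoter sequence is shown for 6 genes whose regions were higher with both cytokines, to show the letters of these elements at genes described below. The sequences are from RefSeq on GRCm38.p6 and run 5′ to 3′ along the gene, from 250 bases before the annotated start to 50 after it. Spsb1 was taken as the gene with the highest ratio among those called in both libraries, and the others were picked after their letters were seen. The windows are chr4:149954957-149955256 (Spsb1, minus strand), chr6:134396079-134396378 (Bcl2l14, plus), chr12:104235897-104236196 (Serpina3g, plus), chr10:68723496-68723795 (Tmem26, plus), chr16:10785487-10785786 (Socs1, minus) and chr11:53769764-53770063 (Irf1, plus). Capitals mark matches to TTCNNNGAA, the GAS palindrome, to the palindrome with the longer spacer (TTC and GAA with 4 bases between them) and to the core of the response element (GAAA, any 2 bases, GAAA). Each was searched on both strands.
Spsb1: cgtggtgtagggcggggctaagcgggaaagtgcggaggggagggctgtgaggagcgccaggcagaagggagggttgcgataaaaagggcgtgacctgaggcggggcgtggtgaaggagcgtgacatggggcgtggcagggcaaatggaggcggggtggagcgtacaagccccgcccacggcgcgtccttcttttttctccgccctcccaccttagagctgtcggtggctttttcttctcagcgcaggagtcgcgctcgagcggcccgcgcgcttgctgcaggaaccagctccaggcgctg
Bcl2l14: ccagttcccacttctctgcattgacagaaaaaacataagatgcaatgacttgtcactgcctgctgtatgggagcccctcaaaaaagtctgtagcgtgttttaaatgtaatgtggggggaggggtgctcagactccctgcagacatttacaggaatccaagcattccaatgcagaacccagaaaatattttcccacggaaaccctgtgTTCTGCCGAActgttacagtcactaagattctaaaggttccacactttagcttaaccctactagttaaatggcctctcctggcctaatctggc
Serpina3g: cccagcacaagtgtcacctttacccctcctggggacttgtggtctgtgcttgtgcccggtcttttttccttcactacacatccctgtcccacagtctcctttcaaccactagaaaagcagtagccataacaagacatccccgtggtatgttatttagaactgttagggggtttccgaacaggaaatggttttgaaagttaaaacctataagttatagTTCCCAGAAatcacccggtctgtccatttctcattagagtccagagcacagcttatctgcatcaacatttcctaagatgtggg
Tmem26: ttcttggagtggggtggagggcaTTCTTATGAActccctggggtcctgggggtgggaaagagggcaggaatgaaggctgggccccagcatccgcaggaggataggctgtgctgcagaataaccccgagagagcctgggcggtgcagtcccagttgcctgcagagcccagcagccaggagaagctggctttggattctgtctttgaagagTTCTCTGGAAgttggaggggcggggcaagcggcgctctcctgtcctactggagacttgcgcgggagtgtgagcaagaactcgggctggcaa
Socs1: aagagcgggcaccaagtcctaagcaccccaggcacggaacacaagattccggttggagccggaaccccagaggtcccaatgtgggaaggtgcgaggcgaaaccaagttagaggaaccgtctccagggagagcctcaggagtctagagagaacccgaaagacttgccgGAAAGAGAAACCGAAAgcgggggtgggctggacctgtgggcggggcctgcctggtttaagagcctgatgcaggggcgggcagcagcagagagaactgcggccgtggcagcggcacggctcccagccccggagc
Irf1: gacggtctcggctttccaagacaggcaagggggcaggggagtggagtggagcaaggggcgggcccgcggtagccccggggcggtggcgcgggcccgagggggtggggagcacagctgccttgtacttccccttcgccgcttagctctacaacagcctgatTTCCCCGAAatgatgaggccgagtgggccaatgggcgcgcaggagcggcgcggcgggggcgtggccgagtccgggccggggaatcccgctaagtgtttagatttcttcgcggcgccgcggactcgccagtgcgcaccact
Irf1 and Serpina3g, whose levels with IFNγ alone were above those with IL-4 alone, held TTCNNNGAA, at 90 to 82 and at 33 to 25 bases before the start. Tmem26, whose level with IL-4 alone was the higher, held the longer palindrome at 227 to 218 and at 41 to 32 bases before it. Bcl2l14, which was far higher with IFNγ alone, also held the longer palindrome, at 43 to 34 bases before its start. Socs1 held a pair of matches to the response element core that overlap each other, at 83 to 74 and 77 to 68 bases, and Spsb1 held none of the 3 patterns. Over all windows the letters were spread thinly. Here a window was sorted by the region it overlaps most, not by the summed level of its gene. TTCNNNGAA was in 8.48% of the 1120 promoter windows whose region passed the 2-fold rule upwards. It was in 7.62% of the 906 windows whose region passed it downwards and 7.00% of the 11748 windows whose region was measured. The longer palindrome was in 7.32%, 4.97% and 5.59% of the same windows, and the response element core in 5.27%, 3.20% and 3.43%. Among all 21263 RefSeq windows the shares were 7.69%, 6.35% and 3.35%. In 34 windows the last pattern overlapped a match to another of the patterns. A match is a description of letters, not a bound site.

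The library of both cytokines held 37.4 M reads, against 21.7 M in the untreated library, and 78.9% against 77.5% of them lay in called islands. These totals were derived from the authors' fold over control as the smallest that fit. Larger totals in the same proportion fit as well and would lower both shares. The library of both cytokines had 32272 islands over 205.6 Mb, against 29398 islands over 183.4 Mb. A deeper library can call more and longer islands, and the part of depth in the results was not tested. Levels are therefore given as reads divided by a size factor from the 14347 regions called in all 13 libraries (normalised reads), and a library with no island at a locus is given as not called, and not as a level of 0. A region or gene is counted as higher or lower when the levels differ at least 2-fold and the higher is at least 50 normalised reads. Intervals beside a ratio are exact 95% binomial intervals of the raw reads and cover counting error only. As a yardstick without a labelled treatment, the scramble library differed from the untreated one by that rule, in either direction, at 20.7% of 24573 regions. The series also holds a scramble library with IFNγ and libraries labelled shJunB and shCEBP-beta. The scramble library may thus be the control of a separate knock-down experiment. Its difference from the untreated library need not be plain variation between untreated cells, and this was not tested. The labels say nothing more of how the cells of the scramble library were handled.

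Both cytokines for 4 h left most H3K27ac regions within 2-fold of untreated cells, with gains and losses in similar number. Of 25957 regions measured, 4679 were higher, which is 18% of them, and 5233 were lower, which is 20.2%. At 4-fold or more, 1969 regions were higher and 1665 were lower, and at 10-fold or more 511 were higher and 239 lower. Of the higher regions, 2401 were called with both cytokines only, and of the lower ones 1959 were called in untreated cells only. In bulk chromatin, acetylation in more cells and more acetylation per cell cannot be told apart.

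**Figure D1:**
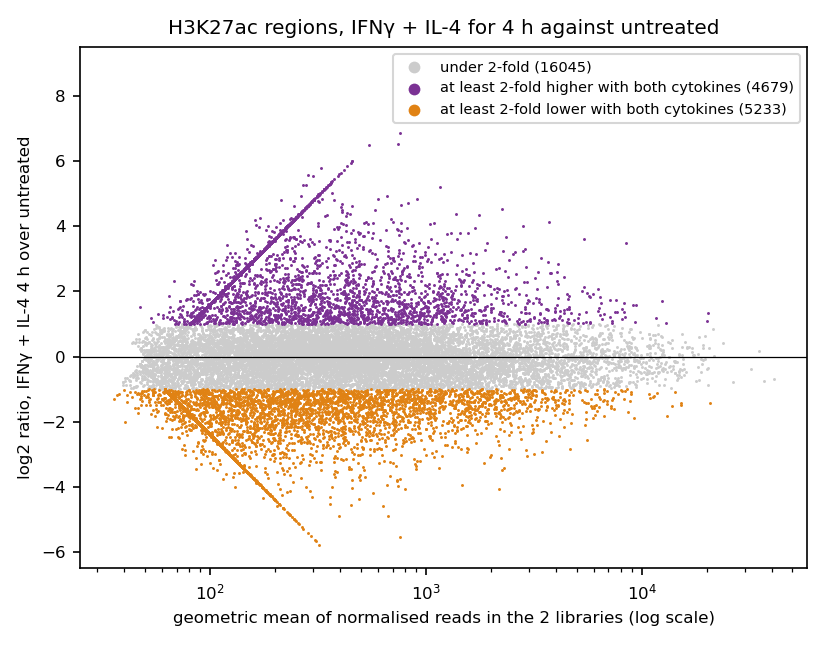
Log2 ratio of normalised H3K27ac reads, IFNγ plus IL-4 for 4 h over untreated (vertical axis), against the geometric mean of both libraries (horizontal axis, log scale), 1 point per region. The 4679 higher and 5233 lower regions lie on both sides of a middle band of regions under 2-fold, and the slanted lines are regions called in 1 library only, whose other level is filled in.

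Higher regions differed from untreated cells more in how far acetylation was called along the DNA than in its density, and lower regions in both. The 2278 higher regions called in both libraries had a median of 10 kb of called island with both cytokines and 3.4 kb in untreated cells, a median length ratio of 2.45, while their reads per kb of island had a median ratio of 1.38. The 3274 lower regions called in both had 3.6 kb with both cytokines and 7.6 kb in untreated cells, a length ratio of 0.531 and a density ratio of 0.605. Regions under 2-fold had 4.8 kb and 4.6 kb. Regions at promoters passed the rule least often. Among 8012 regions that touch a promoter window, 10.2% were higher and 8.39% lower, against 20.5% and 24.99% of 11022 regions near a gene but off its promoter windows and 23.1% and 26.1% of 6923 regions with no gene within 1 kb. Promoter regions were also longer, with a median of 9800 bp, against 7600 bp and 7000 bp in the other classes.

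Reads were then summed over the regions that touch a protein-coding gene or the 1 kb on either side of it. Of 13487 genes measured, 1676 were higher with both cytokines (12.4%) and 1425 were lower (10.6%), with a median log2 ratio of 0.04. Some 52.3% of genes with a region share it with a neighbour, and such pairs cannot be told apart. In reads per kb of called island, 515 genes were higher and 549 lower, so the counts by summed reads rest largely on called length. The choice of untreated library matters too: of 103 genes picked by the naming rule that passed the rule, 88 had an island both with both cytokines and in the scramble library, and 72 of these also passed it against scramble. The 16 under it were Alox5, Ccnd1, Ccne1, Cd14, Hmgcs1, Ifi44, Il12b, Irak1, Lta4h, Mmp12, Psmb8, Psmb9, Ripk1, Socs2, Tfrc and Tnfsf4.

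Among genes called in both libraries the highest ratio was at Spsb1 (chr4:149896283-149955006), which encodes an adaptor of a ubiquitin ligase that marks Nos2 protein for degradation. It had 2935 normalised reads with both cytokines, 1861 with IFNγ alone, 1063 with IL-4 alone and 37.6 in untreated cells, a ratio to untreated of 78.0 (54.9 to 115). Each single cytokine stood far above untreated cells, and both together stood higher still, at 1.58 times (1.50 to 1.66) the level of IFNγ alone. The size of the ratio depends on the reference and the window: the scramble library had 387 reads at Spsb1, and with 10 kb on either side of the gene the log2 ratio was 1.13, against 6.29 with 1 kb.

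Most of the other genes at the top were far higher with 1 of the single cytokines than with the other. Upp1, which encodes uridine phosphorylase, had 1705 normalised reads with both cytokines, 3422 with IFNγ alone, 149 with IL-4 alone and 43.7 in untreated cells. Bcl2l14, a BCL2 family member, had 2199, 5785 with IFNγ alone, 58.4 with IL-4 alone and 64.3 in untreated cells, a ratio of 34.2 to untreated. Il23r, the receptor subunit for IL-23, had 2334 with both, 3089 with IFNγ, 36.1 with IL-4 and 69.2 in untreated cells. At these 3 genes the mark was far higher with IFNγ than with IL-4, and cells given both cytokines had less of it than cells given IFNγ alone. Pla2r1, a phospholipase A2 receptor, showed the same order, with 2251 reads with both, 2649 with IFNγ, 273 with IL-4 and 47.3 in untreated cells. Gm11992, a predicted gene, had 2050.1 with both, 2544 with IFNγ and 43.7 in untreated cells, and was not called with IL-4. Its region is shared with Sun3. The scramble library had 87.5 reads at Upp1, 106 at Bcl2l14, 166 at Pla2r1 and 46.5 at Gm11992, and no island at Il23r.

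Other top genes were higher with IL-4 than with IFNγ. Msx3, a homeobox gene, had 1783 normalised reads with both cytokines, 26.3 with IFNγ alone, 5306 with IL-4 alone and 55.8 in untreated cells. Dnah12, a dynein heavy chain gene, had 7236, 2609.5 with IFNγ, 9843 with IL-4 and 262 in untreated cells. Tarm1, an activating receptor of myeloid cells, had 2068 with both, 881 with IFNγ, 2674 with IL-4 and 80.1 in untreated cells. The cells given both cytokines stood below IL-4 alone at these 3 genes and well above untreated cells. The scramble library had 312 reads at Msx3, 350 at Dnah12 and 269 at Tarm1, so the size of these ratios depends on the untreated library used. Dnase1l3, a secreted DNase of macrophages and dendritic cells, was high with each, with 4217 reads with both, 3331 with IFNγ, 2612 with IL-4 and 161 in untreated cells.

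Some genes were called with both cytokines and not in untreated cells. Il31ra, which encodes a receptor subunit for IL-31, had 5173 normalised reads with both cytokines, 138 with IFNγ alone and 8992 with IL-4 alone, in regions shared with Il6st. Rnase2a, an eosinophil-type ribonuclease gene linked to alternative activation, had 2675 with both, 441 with IFNγ and 4015 with IL-4. Serpina3g and Serpina3f, genes of serine protease inhibitors, were higher with IFNγ. Serpina3g had 2375 with both, 1654 with IFNγ and 360.4 with IL-4, and Serpina3f had 2417, 2255 and 106 in the same libraries. Olfr701 (3529.9 with both) and Ddx4, a germ cell helicase gene (2398 with both), complete this group. The scramble library had 236 reads at Il31ra, 77.8 at Rnase2a, 193 at Ddx4 and 123 at Olfr701.

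Among genes called in both libraries the lowest ratio was at Abca9. Abca9, an ABC transporter gene, had 34.1 normalised reads with both cytokines, 428 with IL-4 alone and 1740.4 in untreated cells, a level 51.0 times lower than untreated (38.6 to 68.9), and was not called with IFNγ alone. Cxcl2 and Cxcl1, chemokines that attract neutrophils, share their regions, with 129.7 reads with both cytokines, 1310.4 with IFNγ, 1521 with IL-4 and 3096 in untreated cells. They stood 23.9 times lower than untreated (20.6 to 27.8) and also 10.1 times lower than with IFNγ alone. The regions of Cxcl5, which hold Cxcl3, Pf4 and Ppbp as well, had 144 reads with both, 164 with IFNγ, 1275 with IL-4 and 1882 in untreated cells. Il17ra, the receptor of IL-17, had 207 with both, 1443 with IFNγ, 882 with IL-4 and 2787 in untreated cells. The predicted gene Gm4832 had 112 with both and 5170.2 in untreated cells. The scramble library was high at each of these loci, with 1042 reads at Abca9, 2717 at Cxcl2, 1993 at Cxcl5, 2199 at Il17ra and 2933 at Gm4832.

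Also among the lowest were Tmprss7, Coro2b, Kif3a, Il2, Siglech, Tmem266 and Slc16a12, at 13.9 to 19.8 times lower than untreated. Siglech, a lectin gene of plasmacytoid dendritic cells, had 167 reads with both cytokines and 2588 in untreated cells. Il2 had 188 with both and 2947 in untreated cells. Genes called in untreated cells and not with both cytokines included Sspn (1047 reads in untreated cells), Col14a1 (1022), Clec4e (914), Fhdc1 (769) and Asic5 (712). Clec4e encodes Mincle, a receptor for mycobacterial glycolipid, and was called with IFNγ alone at 1118 and with IL-4 alone at 213. Where islands were merged over the compared libraries only, log2 ratios were smaller at Cxcl2 (-3.65, against -4.58), Cxcl5 (-1.61, against -3.70) and Sspn (-1.68, against -4.59 with the level with both cytokines filled in).

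Of the lists with at least 2 measured genes, GTPases induced by IFNγ had the highest median. Of 17 measured GTPase genes of the Gbp and immunity-related (Irg) families, whose products attack vacuoles that hold microbes, 13 were higher with both cytokines, 0 lower and 4 under 2-fold, against 12.4% and 10.6% of all genes. Their median log2 ratio to untreated was 2.71 with both cytokines, 2.98 with IFNγ alone and -0.59 with IL-4 alone. Gbp8 had 2614 normalised reads with both and 1992 with IFNγ alone, was not called with IL-4, and had 77.7 in untreated cells. Gbp4 had 2625 with both, 3379.9 with IFNγ, 138 with IL-4 and 165 in untreated cells, a ratio of 15.9 (13.4 to 19.0). Iigp1 had 839 with both, 1194 with IFNγ and 44.5 with IL-4, with no island in untreated cells. At these 3 genes the cells given both cytokines were within 2-fold of IFNγ alone. The scramble library of untreated cells had 97.3 reads at Gbp8, 146 at Gbp4 and 171 at Iigp1. The 17 genes lie on 14 leading regions, since neighbours share reads, as Gbp4 and Gbp9 do. Per kb of called island their median was 0.72.

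The classical activation list had 14 of 23 measured genes higher, 1 lower and 8 under 2-fold, with a median log2 ratio of 1.52 with both cytokines, 1.96 with IFNγ and -0.31 with IL-4. Here the cells given both cytokines often stood between the single treatments. Nos2, the inducible nitric oxide synthase, had 4078 normalised reads with both, 11422 with IFNγ, 386 with IL-4 and 1293 in untreated cells. Its level was 3.15 times untreated (2.96 to 3.37) and 2.80 times lower than with IFNγ alone (2.72 to 2.89). The call at Nos2 depends on the processing: its log2 ratio was 1.66, but 0.76 when islands were merged over the compared libraries only and -0.50 per kb of called island. Cd86, a costimulatory ligand, had 5646 with both, 10814 with IFNγ, 592 with IL-4 and 1765 in untreated cells. Cxcl9 and Cxcl10, chemokines for T cells that share a region, had 10673, 20756 with IFNγ, 2184 with IL-4 and 2628 in untreated cells. At Nos2, Cd86 and Cxcl9 the order of the libraries was the same, with IFNγ alone highest and IL-4 alone lowest. Il6 had 237 with both, 812 with IFNγ and 52.8 with IL-4, and was not called in untreated cells. Ido1, which degrades tryptophan, had 596 with both and 374 with IFNγ and was not called in either other library. The exception in direction was Il12b, a subunit of IL-12, with 877 with both, 974 with IFNγ, 793 with IL-4 and 2740.5 in untreated cells. The scramble library had 1238 there, so the lower level at Il12b rests on the untreated library used here.

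**Figure D2:**
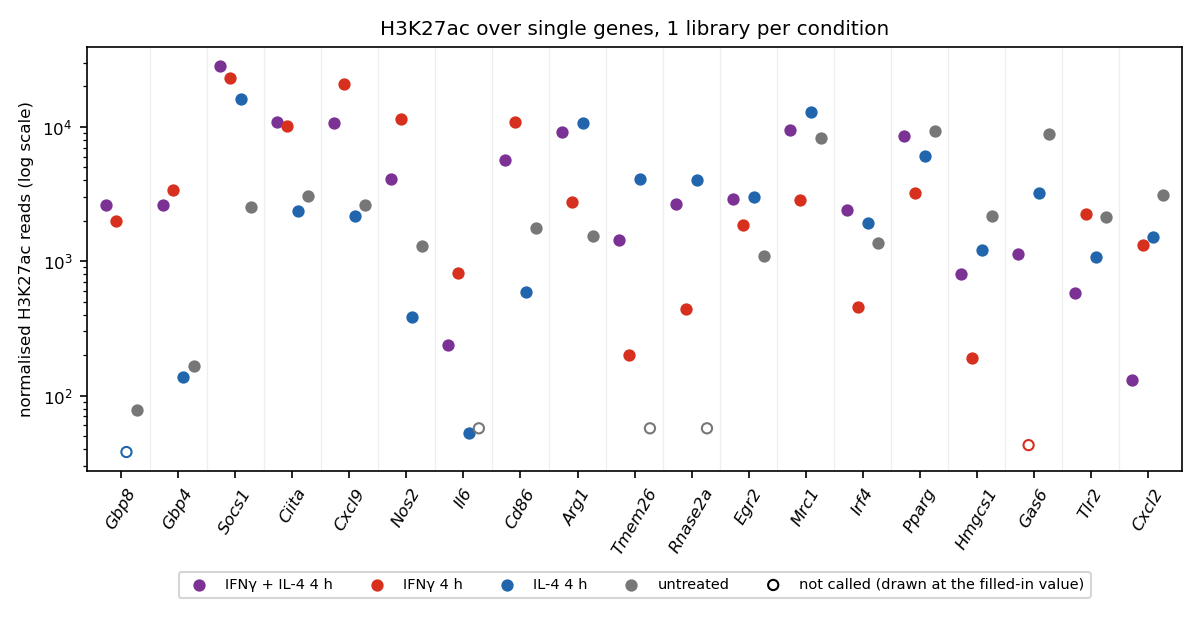
Normalised H3K27ac reads (log scale) at 19 genes, 1 point per library, with IFNγ plus IL-4 for 4 h, IFNγ alone, IL-4 alone and untreated from left to right; open points are libraries with no island, drawn at the filled-in value. Gbp8, Gbp4 and Ciita lie level with IFNγ alone, Arg1, Tmem26 and Mrc1 lie nearer IL-4 alone, and Cxcl2 lies below the other 3 libraries.

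Antiviral genes and regulators of the pathway were higher in part. Of 25 interferon-stimulated antiviral genes, 11 were higher and 0 lower, with a median log2 ratio of 0.90 with both cytokines, 1.55 with IFNγ and -0.77 with IL-4. Ifi205, of a family of DNA sensors, had 2531 reads with both, 9333 with IFNγ, 287 with IL-4 and 345 in untreated cells, so that both cytokines gave 3.69 times less (3.56 to 3.83) than IFNγ alone. Among 19 interferon and JAK-STAT regulators, 8 were higher and 0 lower, with medians of 0.61 with both, 0.85 with IFNγ and -0.22 with IL-4. Jak2, the kinase bound to the IFNγ receptor, had 4849 with both, 4139 with IFNγ, 3807 with IL-4 and 532 in untreated cells. Ptpn2, a phosphatase that restrains cytokine signalling, had 7013 with both, 5017 with IFNγ, 3351 with IL-4 and 922 in untreated cells. Jak2 and Ptpn2 were high with each single cytokine and highest with both. Irf1 and Batf2, transcription factors induced by IFNγ, lay near IFNγ alone. Irf1 had 10167 with both, 10151 with IFNγ, 3298 with IL-4 and 3833 in untreated cells, and Batf2 had 4485, 5088, 523 and 612 in the same libraries.

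The SOCS family, feedback inhibitors of cytokine receptors, had 4 of 8 genes higher and 1 lower, with medians of 1.02 with both cytokines, 0.50 with IFNγ and 0.78 with IL-4. Socs1, which blocks signalling by both cytokines, had 28257 normalised reads with both, 23268 with IFNγ, 16016 with IL-4 and 2519.6 in untreated cells, a ratio of 11.2 to untreated (10.7 to 11.7). With both cytokines a single island of 144 kb ran over Socs1 and its neighbours Rmi2 and Clec16a, while untreated cells had islands of 3.8 kb, 14.6 kb and 2.4 kb there. The regions are shared with those neighbours and the protamine genes. Socs2 and Socs5 were highest with IL-4 alone. Socs2 had 182 with both, 45.0 with IFNγ and 574 with IL-4 and was not called in untreated cells, and Socs5 had 4636, 1679 with IFNγ, 11398 with IL-4 and 1660.3 in untreated cells. Socs6 was lower, with 1083 with both, 712 with IFNγ, 1790.0 with IL-4 and 7933 in untreated cells. Of the receptors of IFNγ, Ifngr1 had 2355 with both cytokines, 3839 with IFNγ, 5942 with IL-4 and 7038 in untreated cells, and Ifngr2 stayed under 2-fold.

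Antigen presentation genes had smaller ratios. The MHC class II list had 5 of 13 genes higher and 0 lower, with medians of 0.64 with both, 0.80 with IFNγ and 0.10 with IL-4. Per kb of called island the median with both was -0.01. Ciita, the master activator of class II genes, had 10842 reads with both, 10191 with IFNγ, 2359.9 with IL-4 and 3052 in untreated cells. At the class II gene H2-Ab1 itself, in a region shared with H2-Ob, the mark did not reach the level of IFNγ alone, with 832 with both, 2826 with IFNγ, 422 with IL-4 and 393 in untreated cells. The MHC class I and antigen processing list had 6 of 17 higher and 0 lower, among them B2m, the light chain of class I, with 10513 with both, 9499 with IFNγ, 4684 with IL-4 and 4256 in untreated cells. The region of Tap1, Psmb8 and Psmb9, which make and move peptides, had 3676, 4123, 1563 and 1445 in the same libraries. Cd274, which encodes the checkpoint ligand PD-L1, had 12939 with both, 11852 with IFNγ, 4789 with IL-4 and 3051 in untreated cells. Of 15 costimulatory and checkpoint genes, 3 were higher and 1 lower, against 12.4% and 10.6% of all genes.

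**Figure D3:**
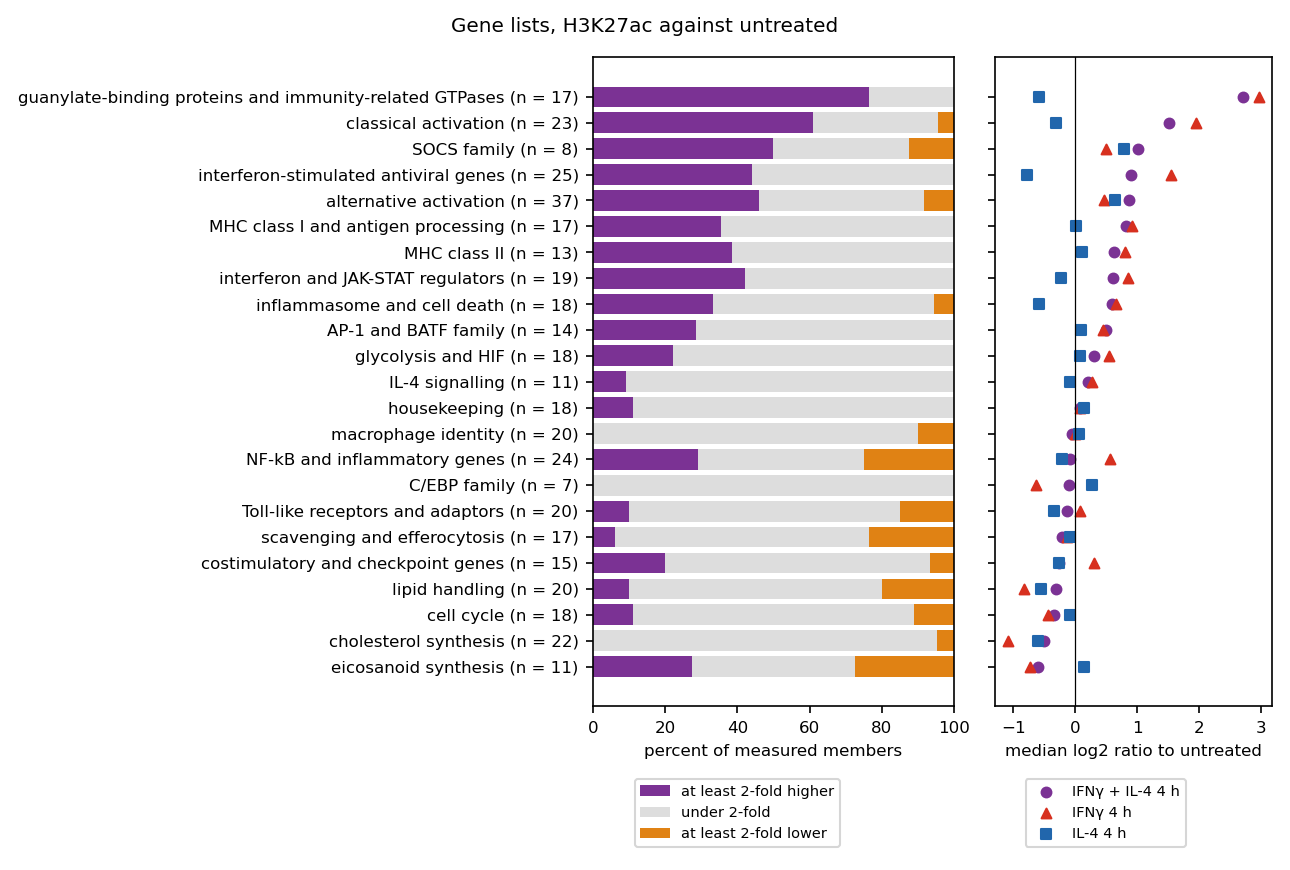
Left, percent of the measured members of each gene list (marker lists of other cells and the 2 receptors of IFNγ not drawn) that were at least 2-fold higher, under 2-fold or at least 2-fold lower with IFNγ plus IL-4 for 4 h than untreated. Right, the median log2 ratio to untreated of each list with both cytokines, IFNγ alone and IL-4 alone; of the lists drawn, the GTPases have the highest median with both cytokines, 2.71, and eicosanoid synthesis the lowest, -0.60.

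Many genes of alternative activation were higher too. Of 37 measured, 17 were higher, 3 lower and 17 under 2-fold, with a median log2 ratio of 0.87 with both cytokines, 0.47 with IFNγ and 0.64 with IL-4. Arg1, the arginase that competes with Nos2 for arginine, had 9212 normalised reads with both, 2756 with IFNγ, 10681 with IL-4 and 1554 in untreated cells, in regions shared with Med23. That is 5.93 times untreated (5.60 to 6.28) and 3.34 times IFNγ alone (3.22 to 3.47). Tmem26, a surface marker of the IL-4 state, had 1433 with both, 199.5 with IFNγ and 4122 with IL-4, and was not called in untreated cells. Cdh1, which encodes E-cadherin, had 7907 with both, 3250.1 with IFNγ, 14301 with IL-4 and 393 in untreated cells. Mgl2, a lectin gene, had 3139 with both, 281 with IFNγ, 3038 with IL-4 and 279 in untreated cells. At Arg1, Tmem26, Cdh1 and Mgl2 the cells given both cytokines were at least 2-fold above IFNγ alone, and at Tmem26 they were 2.88 times below IL-4 alone (2.73 to 3.03). Ccl24, an eosinophil chemokine, exceeded each single treatment, with 5874 with both, 209 with IFNγ, 1493 with IL-4 and 606 in untreated cells. Batf3 did so too, with 22473, 7649 with IFNγ, 15856 with IL-4 and 6858 in untreated cells.

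Further markers of the IL-4 state stayed within 2-fold of untreated cells. Mrc1, the mannose receptor, had 9551 with both cytokines, 2874 with IFNγ, 12929.7 with IL-4 and 8308 in untreated cells. Pparg, a nuclear receptor of lipid metabolism, had 8502 with both, 3217 with IFNγ, 6114 with IL-4 and 9361 in untreated cells. Irf4, a transcription factor of the IL-4 response, had 2402 with both, 458 with IFNγ, 1928 with IL-4 and 1374 in untreated cells. IFNγ alone was more than 2-fold below untreated cells at Mrc1, Pparg and Irf4, and with IL-4 added the level was 3.32 times (3.21 to 3.45), 2.64 times (2.55 to 2.74) and 5.25 times (4.82 to 5.73) that of IFNγ alone. The scramble library had 5409 reads at Mrc1, 4968 at Pparg and 1062 at Irf4. Against it IFNγ alone was under 2-fold lower at Mrc1 and Pparg, so the lower level there rests on the untreated library used here. Egr2, another transcription factor of that response, passed the rule and had 2930.1 with both, 1847 with IFNγ, 2998 with IL-4 and 1092 in untreated cells. Retnla and Chil3, classical markers of the IL-4 state, had an island with IL-4 alone, at 292 and 262, and none with both cytokines, with IFNγ alone or in untreated cells. The members that were lower were Mmp12, Stab1 and Atp6v0d2, at 4.46, 3.46 and 2.79 times below untreated. At Mmp12 the scramble library had 839.6 reads, against 528 with both, which is under 2-fold. Of 11 genes of IL-4 signalling itself, 1 was higher, the adaptor Dok2, and 0 were lower, against 12.4% and 10.6% of all genes. Stat6 had 17871 with both and 22834 in untreated cells.

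**Figure D4:**
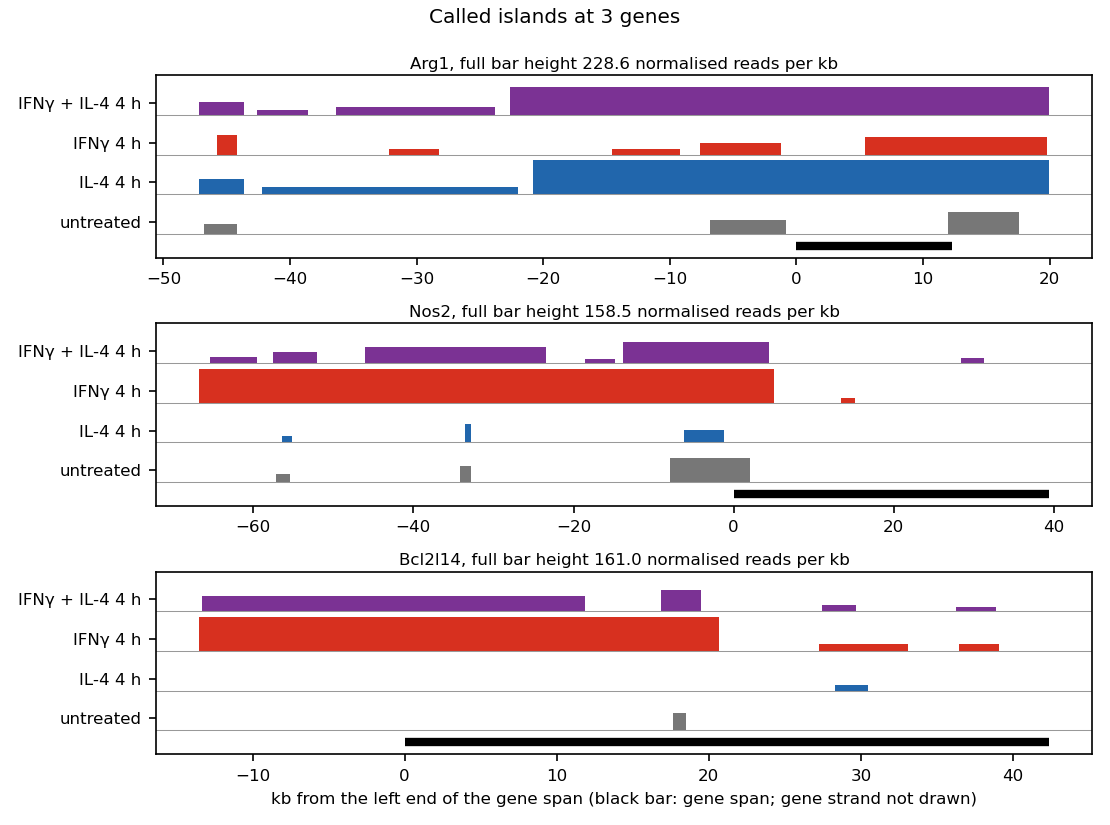
Called islands at Arg1, Nos2 and Bcl2l14 in the libraries of both cytokines, IFNγ alone, IL-4 alone and untreated cells, from top to bottom; bar width is island length, bar height normalised reads per kb on 1 scale within each panel, and the horizontal axis is distance in kb from the left end of the gene span. At Arg1 the island of 42.6 kb with both cytokines matches that of IL-4 alone, while at Nos2 the island of 71.8 kb with IFNγ alone is broken up with both cytokines, and at Bcl2l14 that of 34.2 kb is one of 25.2 kb.

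The islands themselves show where these levels lie. At Arg1 an island of 42.6 kb (chr10:24892601-24935200) held 12069 raw reads with both cytokines, and an island of 40.8 kb held 10065 with IL-4 alone. Untreated cells had 6 kb and 5.6 kb islands there, with 463 and 672 raw reads. At Nos2, IFNγ alone had an island of 71.8 kb (chr11:78854001-78925800, 15171 raw reads). In its place stood, with both cytokines, islands of 5.8, 5.6, 22.6, 3.8 and 18.2 kb. The island at the gene's start had 100.9 normalised reads per kb with both cytokines (18.2 kb), 56.3 with IL-4 alone (5 kb) and 112 in untreated cells (10 kb), so there the island was longer, not denser, than in untreated cells. At Bcl2l14 the island of 34.2 kb with IFNγ alone was one of 25.2 kb with both cytokines, and untreated cells had 0.8 kb in the gene. Per kb of called island the log2 ratio to untreated was -0.25 at Bcl2l14, 0.70 at Socs1 and 0.42 at Arg1, and 53 of the 103 named genes past the 2-fold rule still passed it. Those under it, beside genes noted above, include Upp1 (0.41), Gbp8 (0.72), Msx3 (0.94), Dnah12 (0.77), Ccdc162 (0.99), Cd86 (0.39), Ptgs2 (0.31), Psmb8 (0.44), Hif1a (0.76), Il2 (-0.58), Cxcl5 (-0.43), Il12b (-0.76) and Abca1 (-0.98).

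The mixed state was then placed between the single treatments, without use of the untreated library. IFNγ alone was at least 2-fold above IL-4 alone at 7631 regions, which is 28.1% of the 27193 measured, and IL-4 alone was at least 2-fold above IFNγ alone at 4764, which is 17.5%. On a log2 scale on which 0 is the level with IL-4 alone and 1 the level with IFNγ alone, the median place of both cytokines together was 0.668 at the 3463 regions of the first kind called in all 3 libraries, and 0.458 at the 2564 of the second kind. With regions not called in a library filled in, the medians were 0.586 and 0.574. Of the 7631 regions higher with IFNγ, 40.3% were within 2-fold of IFNγ alone only, 30.7% within 2-fold of IL-4 alone only, 16.3% within 2-fold of each, and 10.5% between with neither so close. Of the 4764 regions higher with IL-4, 41.0% were within 2-fold of IFNγ alone only, 26.9% of IL-4 alone only and 20.8% of each. Among regions called in all 3 libraries the order of these shares changed for the second kind, to 27.3% near IFNγ alone and 32.4% near IL-4 alone. In reads per kb of called island the sets fell to 982 and 824 regions, of which 49.4% and 59.3% were within 2-fold of each single cytokine. There 31.8% of the first kind and 28.6% of the second were near IFNγ alone only, and 17.3% and 11.5% near IL-4 alone only, with median places of 0.586 and 0.594. Places above the higher or below the lower single treatment by 2-fold or more were rare, at 1.34% and 0.878% of the first kind and 0.882% and 0.924% of the second. The regions were picked by the same levels that set 0 and 1 on this scale. Another library tends to fall between ends picked that way, so middle places and rare excursions are in part built in.

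**Figure D5:**
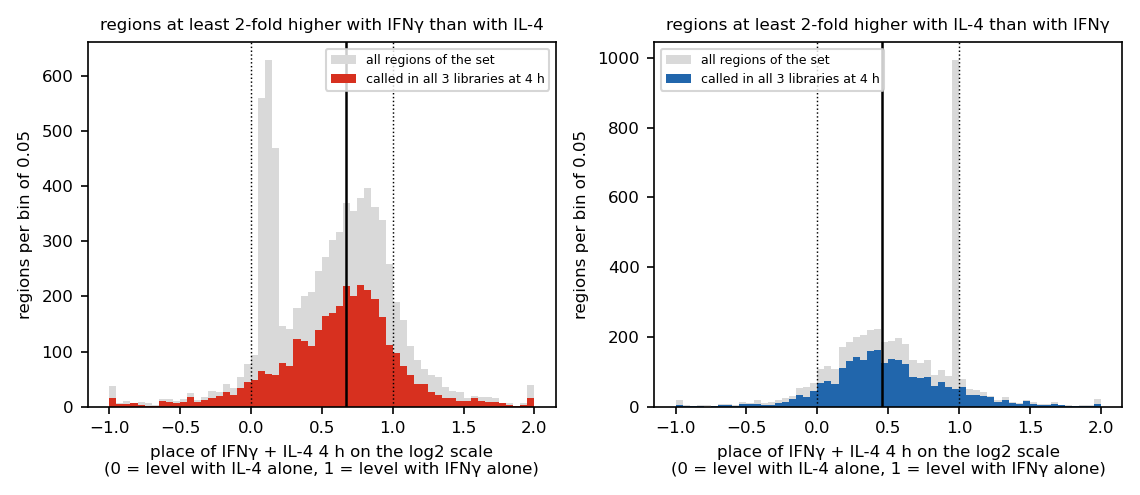
Place of IFNγ plus IL-4 at 4 h between IL-4 alone (0) and IFNγ alone (1) on the log2 scale (horizontal axis) and number of regions per bin (vertical axis), for regions higher with IFNγ (left) and with IL-4 (right); places beyond −1 and 2 are drawn at the ends. Coloured bars are regions called in all 3 libraries, with medians 0.668 and 0.458 as solid lines, and the grey spikes beside 0 (left) and 1 (right) lie where a library not called is filled in.

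The same scale over genes gave 0.675 for the 2108 measured genes at least 2-fold higher with IFNγ than with IL-4 and 0.428 for the 1427 with the opposite order. These genes too were picked by the levels that set the ends of the scale. In the whole table those orders hold for 16.4% and 10.9% of 13569 genes. Gene groups differed in where they lay. The GTPases were higher with IFNγ at 16 of 17 genes, with a median place of 0.931, and the interferon and JAK-STAT regulators at 9 of 19, with 0.894. The classical activation list was higher with IFNγ at 18 of 23, with 0.7, the antiviral genes at 23 of 25, with 0.72, and MHC class II at 6 of 13, with 0.385. The alternative activation list was higher with IL-4 at 14 of 37, with a median place of 0.239, and cholesterol synthesis at 9 of 22, with -0.0622, which is level with IL-4 alone. Of the 1676 genes higher with both cytokines than untreated, 1663 were measured with the single cytokines, and 868 of them were at least 2-fold higher with IFNγ than with IL-4 and 272 the reverse. Of 1336 measured genes that were lower, 128 were higher with IFNγ and 334 with IL-4.

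Few loci went beyond every other 4 h state. The library of both cytokines was at least 2-fold above IFNγ alone, IL-4 alone and untreated cells at 430 of 32558 regions (1.32%) and at 73 of 14039 genes (0.52%), and at least 2-fold below all 3 at 365 regions (1.12%) and 83 genes (0.591%). The genes named here were chosen after their values were seen, as the most separated ones called in all 4 libraries. Ccdc162, a coiled-coil gene, had 3956 normalised reads with both, 1089 with IFNγ, 743 with IL-4 and 112 in untreated cells. Ikzf2, which encodes the transcription factor Helios, had 4321 with both, 1200.1 with IFNγ, 291 with IL-4 and 266 in untreated cells. Both were already high after 2 h of both cytokines, at 3365 and 3228. At Ccdc162 the single cytokines at 2 h were within 2-fold of that level, at 2739 with IFNγ and 1868 with IL-4. Esyt2, Pex14 and Prkca stood above by 2.75 to 2.91 times. Below all 3 were Gm4832, Cxcl2 with Cxcl1, Il17ra and Slc25a33, a mitochondrial carrier gene with 44.8 with both, 487 with IFNγ, 192 with IL-4 and 464 in untreated cells.

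Inflammatory genes passed the rule in both directions. Of 24 NF-κB and inflammatory genes, 7 were higher and 6 lower, with medians of -0.08 with both cytokines, 0.56 with IFNγ and -0.21 with IL-4. Chemokine genes share regions, and without shared regions the median with both was 1.60. Ptgs2, the inducible cyclooxygenase, had 717 reads with both, 1259 with IFNγ, 246 with IL-4 and 142 in untreated cells. Tnfaip3, which limits NF-κB signalling, had 16393 with both, 22654 with IFNγ, 8216 with IL-4 and 5420.3 in untreated cells. The lower members were chemokines and Nfkbiz. Beside Cxcl1, Cxcl2 and Cxcl3 they included the region of Ccl3 and Ccl4, with 8182 with both, 12148 with IFNγ, 12364 with IL-4 and 23358 in untreated cells. Of 20 Toll-like receptors and adaptors, 2 were higher and 3 lower, shares near the 12.4% and 10.6% of all genes. Tlr2, a sensor of bacterial lipoprotein, had 579 with both, 2249 with IFNγ, 1068 with IL-4 and 2149 in untreated cells, and Cd14, a coreceptor for lipopolysaccharide, had 4265, 5792, 4965 and 12893 in the same libraries. The higher members were Traf6 and Irak1, and neither held per kb of called island, at log2 ratios of -0.085 and -0.72. Of 18 inflammasome and cell death genes, 6 were higher and 1 lower, Ripk1, and the median was 0.59, or -0.26 per kb of called island. Tnfsf10, the death ligand TRAIL, had 1038 with both, 2086 with IFNγ, 132 with IL-4 and 225 in untreated cells, with a log2 ratio to untreated of -0.95 per kb.

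Among metabolic genes, Hif1a, the factor of the hypoxic and glycolytic response, had 6503 with both cytokines, 8069 with IFNγ, 1348 with IL-4 and 1320.5 in untreated cells, and 4 of 18 glycolysis and HIF genes were higher and 0 lower. Of 22 cholesterol synthesis genes, 0 were higher and 1 lower, with medians of -0.51 with both, -1.09 with IFNγ and -0.61 with IL-4. Hmgcs1, an early enzyme of that pathway, was the lower one, with 806 with both, 189.8 with IFNγ, 1214 with IL-4 and 2176 in untreated cells. It shares a region with Nim1k, and without shared regions its log2 ratio was -0.60 and no longer passed the rule. Of 20 lipid handling genes, 2 were higher and 4 lower, against 12.4% and 10.6% of all genes. Lpl, lipoprotein lipase, had 9374 with both, 11296 with IFNγ, 9858 with IL-4 and 2169 in untreated cells. The other higher gene, Abcg1, had 6189 with both, 4173 with IFNγ, 5557 with IL-4 and 3085 in untreated cells. Its log2 ratio of 1.00 was 0.51 with 10 kb on either side, which is under the rule. Apoe and Abca1 were among the lower genes. The region of Apoe and its neighbours had 906 with both, 579.8 with IFNγ, 1771 with IL-4 and 6516 in untreated cells, and Abca1 had 1204, 2575, 1062 and 4952 in the same libraries. After 2 h of both cytokines Abca1 was at 5669, between the untreated library and the scramble library, which had 6055. IFNγ alone for 2 h had 8398 there.

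Among 11 genes of eicosanoid synthesis, 3 were higher and 3 lower, against 12.4% and 10.6% of all genes. Pla2g4a, the phospholipase that frees arachidonic acid, had 28858 reads with both, 31318 with IFNγ, 15366 with IL-4 and 3963 in untreated cells. Ptgs1, the constitutive cyclooxygenase, had 4334 with both, 189 with IFNγ, 4307 with IL-4 and 936 in untreated cells. The lower members, Alox5, Lta4h and Ltc4s, make leukotrienes. They were 2.29, 2.40 and 2.27 times below untreated. Alox5 and Lta4h were under 2-fold against the scramble library. Per kb of called island their log2 ratios were -0.86 and 0.17, which do not pass the rule. Without the region shared with Hal, Lta4h was at -0.26. Of 17 scavenging and efferocytosis genes, 1 was higher, Pros1, and 4 were lower. Gas6, a ligand that bridges dying cells to macrophages, had 1127 with both, 3202 with IL-4 and 8874 in untreated cells and was not called with IFNγ alone. Stab2, Stab1 and Cd163, scavenger receptors, were 8.14, 3.46 and 2.70 times below untreated.

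Some neighbourhoods held many gains or losses. In windows of 1 Mb, the most higher regions lay on chromosome 2 from 28 to 29 Mb, with 16 of 28 measured regions higher, and on chromosome 15 from 63 to 64 Mb, with 16 of 38. The window of the Gbp cluster on chromosome 5, from 105 to 106 Mb, had 14 of 28 higher, with Gbp4, Gbp6, Gbp8 and Gbp9 among its higher genes. The most lower regions lay on chromosome 17 from 5 to 6 Mb, at Arid1b and Zdhhc14, with 22 of 35 lower, and on chromosome 14 from 103 to 104 Mb, at Ednrb, with 21 of 27. In the window on chromosome 4 from 53 to 54 Mb, which holds Abca1, 16 of 19 were lower and 0 higher. Of 2052 windows with a measured region, 315 had at least 5 higher regions and 399 at least 5 lower ones.

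Away from genes, the highest ratio was at chr13:44665801-44707800, 22.97 kb from Jarid2, with 1963 normalised reads with both cytokines, 461 with IFNγ, 2912 with IL-4 and 41.3 in untreated cells, a ratio of 47.6. A region 16.4 kb from Acsl1, chr8:46385001-46454600, had 2313 with both, 8048 with IFNγ and 494 with IL-4, with no island in untreated cells. A region 30.0 kb from Fas, chr19:34357801-34379600, had 2263 with both, 1289 with IFNγ and 2490 with IL-4 and was not called in untreated cells. Of the single cytokines, IL-4 gave the higher level near Jarid2 and Fas, and IFNγ near Acsl1. The 3 lowest regions were not called with both cytokines. The region 55.6 kb from Abca1 (chr4:53215601-53243600) had 487 with IFNγ, 355 with IL-4 and 2210.1 in untreated cells. The one 57.3 kb from Dscam (chr16:97228401-97253800) was not called with either single cytokine and had 2162 in untreated cells. The one 3.87 kb from Cpsf6 (chr10:117310601-117340800) had 1178 with IFNγ, 199 with IL-4 and 1982 in untreated cells.

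The labelled cell type was checked against its markers. All 20 macrophage genes of the list, among them Spi1, Csf1r, Adgre1 and Itgam, were measured. Of these 0 were higher and 2 lower, with a median log2 ratio of -0.05 and summed levels of 150349 normalised reads with both cytokines and 170070.0 in untreated cells. The lower ones were Cd14 and Lyz2. The lysozyme gene Lyz2, in a region shared with Lyz1, had 679 with both, 3877 with IFNγ, 1983 with IL-4 and 7498 in untreated cells. Defining genes of other cells were mostly not called in either library, among them Cd3e, Cd8a and Bcl11b of T cells, Pax5 and Ebf1 of B cells, S100a8, Ly6g and Mpo of neutrophils, Ncr1 and Eomes of NK cells, Kit and Cpa3 of mast cells, and Col1a1, Dcn and Pdgfra of fibroblasts. Measured were 4 of 10 T cell markers, 5 of 8 B cell markers, 4 of 9 neutrophil markers, 7 of 8 dendritic cell markers, 3 of 8 mast cell markers, 1 of 7 NK cell markers and 1 of 8 fibroblast markers. Summed levels with both cytokines and in untreated cells were 8335 and 13504 for T cell markers, 6336 and 9115 for B cell markers, 14248 and 9948 for neutrophil markers, 3759 and 1682 for mast cell markers, 609.8 with both and no island in untreated cells for NK cell markers, and 13410.1 and 13507 for fibroblast markers. Among dendritic cell genes 3 were higher and 2 lower, with summed levels of 39219 with both cytokines and 20964 in untreated cells, of which Batf3 alone had 22473 and 6858. The fibroblast marker measured was Pdgfrb, and no level was left for it once regions shared with other genes were set aside. The NK cell marker measured was Klrd1, which shares regions with Klre1. Its log2 ratio was 3.42, but 0.20 without shared regions. The part of other cells in the results was not tested. Housekeeping genes had 2 of 18 higher, B2m and Tfrc, and 0 lower, with a median of 0.08. Tfrc had 319 with both cytokines, 138 in untreated cells and 489 in the scramble library, so its direction turned with the untreated library used, and with 10 kb on either side its log2 ratio was 0.95. The C/EBP family had 0 of 7 higher and 0 lower, and the AP-1 and BATF family 4 of 14 higher and 0 lower. Of 18 cell cycle genes 2 were higher and 2 lower. The shares to set beside all counts of this paragraph are 12.4% higher and 10.6% lower among all genes.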

How the data were processed

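Chromatin of primary mouse macrophages was precipitated for H3K27ac and sequenced, 13 libraries in all. Per the submitters' processing notes, the tools named are Bowtie2 2.2.6 and SICER 1.1, and the builds mm10 and GRCm38. The authors deposited for each library a list of islands with the raw count of ChIP reads, the count of control reads, a p-value, a fold over control and a false discovery rate (q-value). The control library held 14.1 M reads and gave equal counts in all files. Deposited ChIP counts were used as levels, and the authors' fold ratio only to describe islands.

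Islands of all 13 libraries that overlap by at least 1 base were merged to 39569 regions. Counts were summed per region and divided by median-of-ratios size factors over the 14347 regions called in every library. A library with no island in a region was given the 5th percentile of its own reads per island (43.5 normalised reads with both cytokines and 57.0 in untreated cells), capped at the level of the library that has an island, a cap added after the files were read. Genes are 21887 protein-coding RefSeq genes of GRCm38.p6, with 1 kb on either side. Promoter windows matched 17492 genes by symbol. Levels cover called islands only, so reads outside islands are missing, and depth bears on what is called. With 1 library per condition there is no replicate and no test. Labels do not say whether libraries came from separate cultures.

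Named genes were the 12 highest and 12 lowest ratios among genes called in both libraries, the 6 highest of those called in 1 library only, the most extreme members of each list, and a panel of markers. Other list members were named after their values were seen. A few genes this rule names are not reported here. Where neighbours share all regions, the first stands for them. The members and the 31 lists were chosen with earlier results of these data known. The ratio calls were checked on simulated counts of regions called in both libraries. That check covers neither island calling, nor called length, nor filled-in levels. Python 3.11.15, numpy 2.4.6, pandas 2.3.3, scipy 1.17.1 and matplotlib 3.10.9 were used.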

Additional observations from a re-analysis of the deposited data

How the results depend on the processing

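Regions higher and lower numbered 2278 and 3274 when both libraries had to have an island, 2876 and 3086 in reads per kb of called island, and 1969 and 1665 at 4-fold. Genes higher and lower numbered 515 and 549 per kb, 576 and 329 at 4-fold, and 918 and 708 with regions at promoter windows only, an alternative chosen after seeing the data. The other alternatives left these counts within 1.5 times. Per kb the log2 ratio changed sign at Bcl2l14 (-0.25), Traf6 (-0.085), Irak1 (-0.72), Tnfsf10 (-0.95), Lta4h (0.17), Ccne1 (-0.023), Hdc (-0.73), Nos2 (-0.50) and Ccl17 (-0.10), and with 10 kb on either side at Tnfsf4 (2.97). The cause was not tested. Of the named genes past the rule, 99 of 102 passed with islands merged over the compared libraries (not Cd22, Nos2 or Traf6), 101 of 102 over the 7 cytokine libraries, 102 of 103 scaled by total reads, 82 of 84 with islands in both, 103 of 103 with control reads subtracted, 99 of 103 with 10 kb, 64 of 70 without shared regions and 57 of 62 at promoter windows. No paired analysis was possible because each group is 1 library, and no replicate could be left out. Intervals cover counting error only; island calls follow depth, which differed between the libraries.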

Other observations

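The library of both cytokines at 2 h, 1 library as well, gives a second view of the gene groups. The median log2 ratio to untreated of the GTPases was 2.40 at 2 h and 2.71 at 4 h, and that of the classical activation list 1.34 and 1.52. The alternative activation list had 1.12 and 0.87, the antiviral genes 1.43 and 0.90, and cholesterol synthesis 0.12 and -0.51. Nos2 had 3280.4 normalised reads at 2 h and 4078 at 4 h, and Cxcl9 had 19012 and 10673. Arg1 had 6521 at 2 h and 9212 at 4 h, and Tmem26 had 541 and 1433. Cxcl2 had 421 at 2 h and 129.7 at 4 h. Both times are set against the same untreated library.

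Of the AP-1 and BATF list, the transcription factor genes Fosl2 and Jdp2 had 4688 and 7408 normalised reads with both cytokines, against 2017 and 2603 in untreated cells. Slc2a1, the main glucose transporter, had 4423 with both and 2030.5 in untreated cells, Hk3, a hexokinase, 6909 and 2753, and Pfkp, a phosphofructokinase, 6661 and 2378. In the cell cycle list Ccnd1 and Ccne1 were higher, with 3311 and 348 with both, against 1223 and 118 in untreated cells, while Bub1, a checkpoint kinase, had 66.9 with both and 237 in untreated cells. The call at Bub1 was lost with 10 kb on either side of the gene, at a log2 ratio of -0.18, and per kb of called island, at -0.92, against -1.82. Against the scramble library Ccnd1 and Ccne1 were under 2-fold, at 1713 and 249 there.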
